A study of Mus musculus with 9 samples.

Results

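The 9 genes described here encode receptors, surface proteins and transcription factors that mark precursor cells and other mesenchymal cells of fat: Pdgfra, Pdgfrb, Cd34, Thy1, Dpp4, Twist1, Twist2, Prrx1 and Zfp423. They were taken by name, each through its single probe set with 1 gene symbol, out of 19858 genes with such a probe set on the array. All 9 lay above the intensity filter that left 13335 genes for testing. The list was drawn up with earlier results of these data known. The cultures were grown from the interscapular brown fat of male C57BL/6 mice aged 5 weeks, from a fraction enriched in precursors after mature fat cells had been floated off. Every group received insulin at 50 nM from day 1, 100 nM from day 5 and 200 nM from day 7, and cells were collected at about day 9. The LPA group (cultures 7, 8 and 9) was given 1-oleoyl lysophosphatidic acid at 5 µM, the HA155 group (cultures 4, 5 and 6) an inhibitor of autotaxin, the enzyme that makes LPA, at 2.5 µM, and the control group (cultures 1, 2 and 3) the vehicle DMSO. RNA came from whole dishes, so fewer cells of a type and less RNA per cell cannot be told apart in any value below. How long the cells were exposed is unsettled, because the design text places the compounds during differentiation while the sample labels give 9 days in vitro.

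Fat cells arise from mesenchymal precursors that carry PDGF receptors and other surface proteins and lose most of them as they take up lipid. PDGF receptors are tyrosine kinases that keep such cells dividing and migrating when their ligands bind. Twist and Prrx factors hold cells of the embryonic and adult mesenchyme in an undifferentiated state, whereas Zfp423 commits precursors to the fat cell fate. LPA is a lipid that signals through G protein-coupled receptors, and the comparisons ask which genes respond to it and which to blocking its synthesis.

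With LPA 6 of the 9 genes rose and none fell, where 12.2% of all tested genes rose and 10.8% fell. Thy1 rose most, 1.69-fold, and Pdgfrb 1.63-fold, followed by Pdgfra (1.35-fold), Prrx1 (1.30-fold), Twist1 (1.25-fold) and Twist2 (1.19-fold). Cd34 and Dpp4 differed by 0.27 and 0.29 on the log2 scale without passing the test, and Zfp423 by -0.04. With HA155 only Twist2 passed, at 0.796-fold, and that call was lost in 9 of 20 alternative fits. In LPA arrays set directly against HA155 arrays 8 of the 9 genes rose, all but Zfp423, where 13.7% of all tested genes did.

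Promoter sequence is shown for 4 genes, those that rose together with LPA and for which a window was taken. The letters are the 250 bases before an annotated start in RefSeq (GRCm38.p6), read 5′ to 3′ on the gene's strand. Capitals mark each match to a searched motif. For Pdgfra and Prrx1 the window lies inside the gene's annotated extent (chr5:75151322-75198206 and chr1:163245119-163315145), so the start used is not the outermost. Of the 9 genes, 7 had such an entry. The motifs, searched on both strands, were the E box CANNTG bound by basic helix-loop-helix proteins such as Twist, the TEAD motif GGAATG, the AP-1 motif TGANTCA, the Sp1 GC box GGGCGG and the SRF CArG box.
Pdgfra, chr5:75152001-75152250, plus strand: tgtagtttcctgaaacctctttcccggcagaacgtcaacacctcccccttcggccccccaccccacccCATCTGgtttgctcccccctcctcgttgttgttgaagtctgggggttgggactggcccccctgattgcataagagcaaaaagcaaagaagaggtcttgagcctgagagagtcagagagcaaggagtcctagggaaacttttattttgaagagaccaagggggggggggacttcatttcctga
Prrx1, chr1:163313651-163313900, minus strand: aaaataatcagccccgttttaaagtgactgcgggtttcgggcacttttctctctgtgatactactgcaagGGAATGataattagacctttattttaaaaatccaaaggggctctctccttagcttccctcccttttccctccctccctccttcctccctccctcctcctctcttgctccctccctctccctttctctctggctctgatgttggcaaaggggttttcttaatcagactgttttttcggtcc
Twist1, chr12:33957421-33957670, plus strand: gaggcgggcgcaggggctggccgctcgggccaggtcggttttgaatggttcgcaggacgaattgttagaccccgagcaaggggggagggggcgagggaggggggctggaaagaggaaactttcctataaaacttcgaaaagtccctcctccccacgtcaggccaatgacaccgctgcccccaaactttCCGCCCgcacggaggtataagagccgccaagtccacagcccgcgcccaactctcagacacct
Twist2, chr1:91801211-91801460, plus strand: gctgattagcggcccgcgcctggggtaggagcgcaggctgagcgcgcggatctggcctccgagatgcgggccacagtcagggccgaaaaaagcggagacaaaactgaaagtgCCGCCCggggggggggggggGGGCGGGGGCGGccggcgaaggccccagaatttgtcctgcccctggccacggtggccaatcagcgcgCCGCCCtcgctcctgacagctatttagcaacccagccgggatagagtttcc

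No motif was shared by all 4 windows. The Pdgfra window held 1 E box, whose first base lies 182 bases before the start used. The Prrx1 window held 1 TEAD motif at 180 bases before its own. The Twist1 window held 1 GC box at 62 bases, and the Twist2 window held 4, at 138, 118, 112 and 51 bases, of which the pair at 118 and 112 abut without overlap. None of the 4 held an AP-1 motif or a CArG box. Among 32851 promoter windows of the same length, 66.2% held an E box, 12.6% the TEAD motif, 32.7% the GC box, 6.75% the AP-1 motif and 1.47% the CArG box, so that an E box in 1 of 4 windows is no more than the background. A match is a run of letters and was not tested for binding.

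The LPA arrays stood apart from the others over all genes, on a first principal component that held 66.7% of the variance, and LPA array 8 stood farthest out. The median SD of a gene within a group was 0.107 with LPA, 0.0540 with HA155 and 0.0743 in control on the log2 scale, and the test pools these. Of 9 brown adipocyte markers 4 were below the filter level of 5.59 on average. Ucp1, the uncoupling protein that makes heat, averaged 5.17 with LPA, 5.29 with HA155 and 5.22 in control (log2 intensity, n = 3 each). Dio2 and Elovl3, other markers of active brown fat, were under that level in every array, while Cidea averaged 4.75 with LPA, 6.39 with HA155 and 4.92 in control. The other 5 were tested, and 4 of them fell with LPA and 3 rose with HA155, as given beside the fat cell genes below. Batch and group cannot be told apart where they coincide, since neither batches nor scan dates are labelled. The arrays came from 3 cultures per group with subject numbers of their own, and their number limits the precision of all values below.

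Among the receptors, Pdgfra, the PDGF receptor that marks adipocyte precursors, measured 11.96, 11.98 and 12.02 in the LPA arrays, against 11.63, 11.55 and 11.46 in the control arrays (log2 intensity, as for all array values below). Every LPA array lay above every control array, and the LPA arrays lay close together. The gene rose by 0.44 (SE 0.07, limma adjusted p = 0.00104). Across all tested genes 12.2% were called higher with LPA and 23% in either direction, the shares to set beside the 6 of 9 members that rose. In the HA155 arrays Pdgfra measured 11.38, 11.54 and 11.32. These values overlapped the control range, with a difference of -0.14 (95% interval -0.29 to 0.02, limma adjusted p = 0.727).

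Pdgfrb, the PDGF receptor of pericytes, fibroblasts and mural precursors, measured 10.78, 11.03 and 10.92 with LPA, against 10.23, 10.19 and 10.20 in control. The LPA group was higher throughout, with array 8 at the top, while the control arrays were nearly level. It rose by 0.70 (SE 0.09, limma adjusted p = 0.000133), and 1.33% of tested genes had a larger difference. With HA155 it measured 9.91, 10.17 and 9.90, each below the lowest control array. Groups that separate downward in this way made up 7.9% of all tested genes for HA155. The difference of -0.21 did not pass (95% interval -0.40 to -0.02, limma adjusted p = 0.520). LPA set against HA155 gave the largest value of the 9 genes, a rise of 0.92 (SE 0.09, limma adjusted p = 1.58e-05), a 1.89-fold difference.

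Among the surface proteins, Thy1, the glycoprotein also called CD90 that marks mesenchymal stromal cells, measured 9.96, 10.29 and 10.12 with LPA, against 9.42, 9.26 and 9.42 in control. The groups did not overlap. Control arrays 1 and 3 held an identical value, and whether this tie understates the control spread was not tested. Thy1 rose by 0.76 (SE 0.09, limma adjusted p = 0.000131), and 0.967% of tested genes had a larger difference. The HA155 arrays, at 9.26, 9.36 and 9.14, overlapped control and differed by -0.11 (95% interval -0.32 to 0.09, limma adjusted p = 0.892). Thy1 is also made by T cells and neurons. Of 8 T cell markers with a probe set, 6 were below the filter, among them Cd4 and Cd3g, and the other two, Cd3e and Cd8a, did not pass with LPA, at a summed intensity of 141 to 156 in LPA arrays and 134 to 147 in control arrays.

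Cd34, a sialomucin of precursors that is shared by endothelial and blood-forming cells, measured 9.64, 9.35 and 9.84 with LPA, against 9.48, 9.28 and 9.28 in control. LPA array 8 fell inside the control range while the other two lay above it. The difference of 0.27 did not pass (SE 0.12, limma adjusted p = 0.133), and without LPA array 8 it was 0.40 and passed (limma adjusted p = 0.0142). In the HA155 arrays Cd34 measured 9.23, 8.99 and 9.12, all below control, with a difference of -0.23 that did not pass (95% interval -0.49 to 0.03, limma adjusted p = 0.687). LPA against HA155 gave a rise of 0.50 (SE 0.12, limma adjusted p = 0.00839) with no overlap. Of 14 endothelial markers 5 were below the filter, Pecam1, Kdr, Erg, Sox17 and Emcn. Of the 9 tested, 1 rose with LPA (Tek, 0.37) and 1 fell (Sox18, -0.47), where 12.2% and 10.8% of all tested genes did. The Sox18 call was lost without control array 2 or 3 or LPA array 8. The summed intensity of the 9 was 841 to 891 in LPA arrays, 770.0 to 830.3 in HA155 arrays and 849 to 888 in control arrays.

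Dpp4, a cell-surface peptidase that marks interstitial precursors in mouse fat, was dim. It measured 6.17, 5.85 and 6.13 with LPA, against 5.83, 5.85 and 5.59 in control. LPA array 8 and control array 2 held the same value, and the lowest control array lay just under the filter level of 5.59. The difference of 0.29 missed the threshold (SE 0.10, limma adjusted p = 0.0646), and without LPA array 8 it was 0.39 and passed (limma adjusted p = 0.0139). With HA155 it measured 5.67, 5.71 and 5.48, which overlapped control, at a difference of -0.14 (95% interval -0.36 to 0.09, limma adjusted p = 0.882). Against HA155 it rose by 0.43 with LPA (SE 0.10, limma adjusted p = 0.00958). That call was lost without HA155 array 6 (limma adjusted p = 0.0502), and levels this close to background understate a change.

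**Figure D1:**
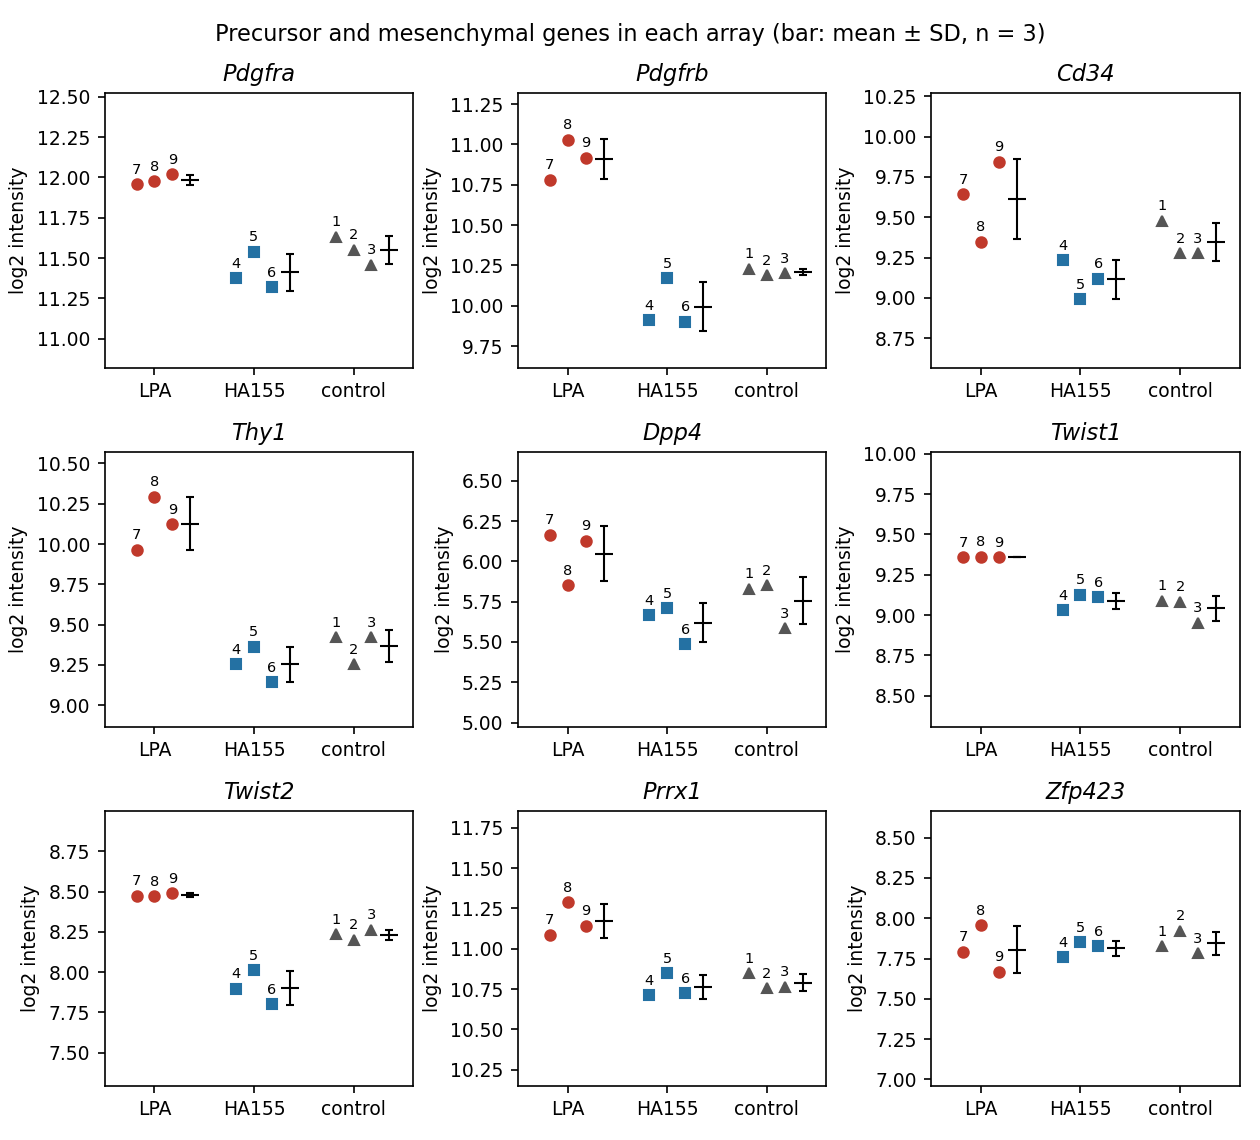
Log2 intensity of each of the 9 genes in every array, with the LPA, HA155 and control groups from left to right, array numbers above the points and the mean ± SD of the 3 arrays beside them; every panel spans the same log2 range. The LPA points lie above all control points for Pdgfra, Pdgfrb, Thy1, Twist1, Twist2 and Prrx1, while for Cd34 and Dpp4 array 8 lies within the control range and for Zfp423 the groups overlap.

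Among the transcription factors, Twist1 and Twist2 are closely related basic helix-loop-helix proteins of mesenchyme, and in mouse brown fat Twist1 is known to dampen the targets of the coactivator PGC-1alpha. Twist1 measured 9.36 in each of LPA arrays 7, 8 and 9, against 9.09, 9.08 and 8.95 in control. The LPA values were close to identical (SD 0.00231) and all above control. Twist1 rose by 0.32 (SE 0.06, limma adjusted p = 0.00244). The HA155 arrays measured 9.03, 9.12 and 9.11 and overlapped control, at a difference of 0.05 (95% interval -0.08 to 0.18, limma adjusted p = 0.951).

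Twist2 measured 8.47, 8.47 and 8.49 in the LPA arrays, against 8.24, 8.20 and 8.26 in control. The LPA arrays were tightly grouped above the control arrays, and the gene rose by 0.25 (SE 0.06, limma adjusted p = 0.0152). Without control array 2 the adjusted p was 0.0600, the only one of 20 alternative fits in which that call was lost. With HA155 it measured 7.90, 8.01 and 7.80, each below every control array. It fell by 0.33 (SE 0.06, limma adjusted p = 0.0380), where 0.427% of tested genes were called lower, 0.607% higher and 1.03% in either direction. A more negative difference was found in 0.802% of tested genes. Its adjusted p ranged from 0.0129 to 0.189 over the alternative fits, and the call was lost without control array 1, 2 or 3, HA155 array 4 or 6, or LPA array 7. The order of its levels was LPA, then control, then HA155, with no overlap between neighbours, and LPA against HA155 gave a rise of 0.58 (SE 0.06, limma adjusted p = 5.03e-05).

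Prrx1, a homeobox factor of limb and other mesenchyme, measured 11.09, 11.29 and 11.14 with LPA, against 10.85, 10.76 and 10.76 in control. The groups did not overlap, and Prrx1 rose by 0.38 (SE 0.07, limma adjusted p = 0.00204). The HA155 arrays, at 10.71, 10.85 and 10.73, overlapped control, with a difference of -0.03 (95% interval -0.18 to 0.13, limma adjusted p = 0.985). HA155 array 5 and control array 1 held the same value.

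Zfp423, the zinc-finger factor of preadipocyte commitment that in mice also restrains the thermogenic program of white fat cells, measured 7.79, 7.96 and 7.67 with LPA, against 7.83, 7.92 and 7.78 in control. The LPA arrays bracketed the control arrays. The difference was -0.04 (95% interval -0.21 to 0.13, limma adjusted p = 0.772). The HA155 arrays measured 7.76, 7.85 and 7.83 and lay within or next to the control range, at -0.03 (95% interval -0.20 to 0.14, limma adjusted p = 0.984). The upper end of the LPA interval lies below the difference of each of the 6 genes that rose. It lies within the 95% interval of Twist2 (0.11 to 0.38), and differences between genes were not tested here.

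**Figure D2:**
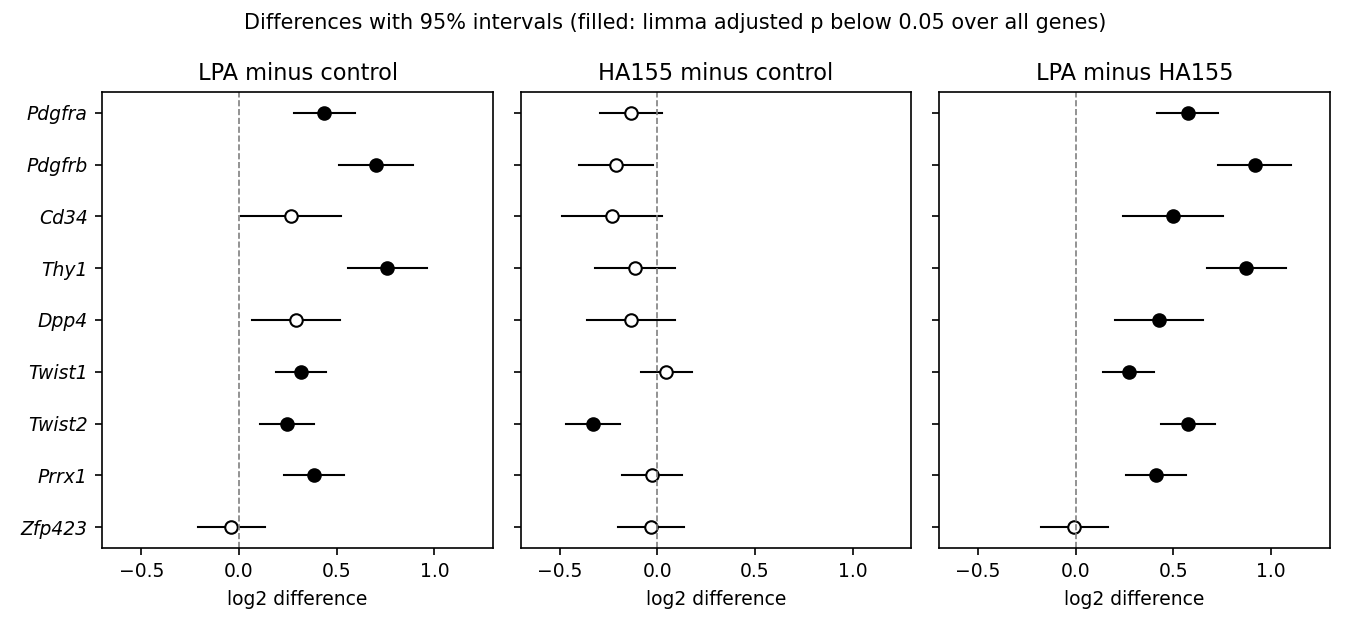
Log2 differences of the 9 genes with 95% intervals from limma for LPA minus control, HA155 minus control and LPA minus HA155; filled points passed at an adjusted p below 0.05 over all 13335 genes. In LPA minus control 6 points are filled, in HA155 minus control only Twist2, and in LPA minus HA155 all but Zfp423.

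Over the 9 genes the median difference was 0.32 for LPA minus control, against 0.00519 over all tested genes. For HA155 minus control it was -0.14, against 0.00184, and for LPA minus HA155 it was 0.50, against 0.00540. In the last comparison 8 of 9 rose, where 13.7% of tested genes rose, 12.4% fell and 26.1% were called in either direction. All 8 also separated upward, with every LPA array above every HA155 array, where 20.5% of tested genes separated upward and 18.2% downward. For LPA minus control 6 of 9 separated upward and none downward, where 17.5% and 15.6% of tested genes did. For HA155 minus control 8 of the 9 differences were negative. There 3 genes, Pdgfrb, Cd34 and Twist2, separated downward and none upward, where 7.9% and 8.87% of tested genes did. These comparisons share arrays, so their values are given side by side and not as independent evidence.

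Within the groups, single arrays moved many of the genes together. HA155 array 5 was the highest of its group for 8 of the 9 genes and the lowest for Cd34. LPA array 8 was the highest of its group for Pdgfrb, Thy1, Twist1, Prrx1 and Zfp423, and the lowest for Cd34, Dpp4 and, narrowly, Twist2. The span of the LPA group was 0.50 for Cd34 and 0.33 for Thy1, against 0.00446 for Twist1 and 0.02 for Twist2. After subtraction of each group's mean, Pearson's r over the 9 arrays was 0.901 between Pdgfrb and Prrx1, 0.859 between Thy1 and Prrx1 and 0.836 between Pdgfrb and Thy1, but -0.857 between Cd34 and Zfp423 and -0.516 between Pdgfrb and Cd34. Without the subtraction the first 3 pairs gave 0.975, 0.984 and 0.985, values that the distance of the LPA group sets in large part.

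**Figure D3:**
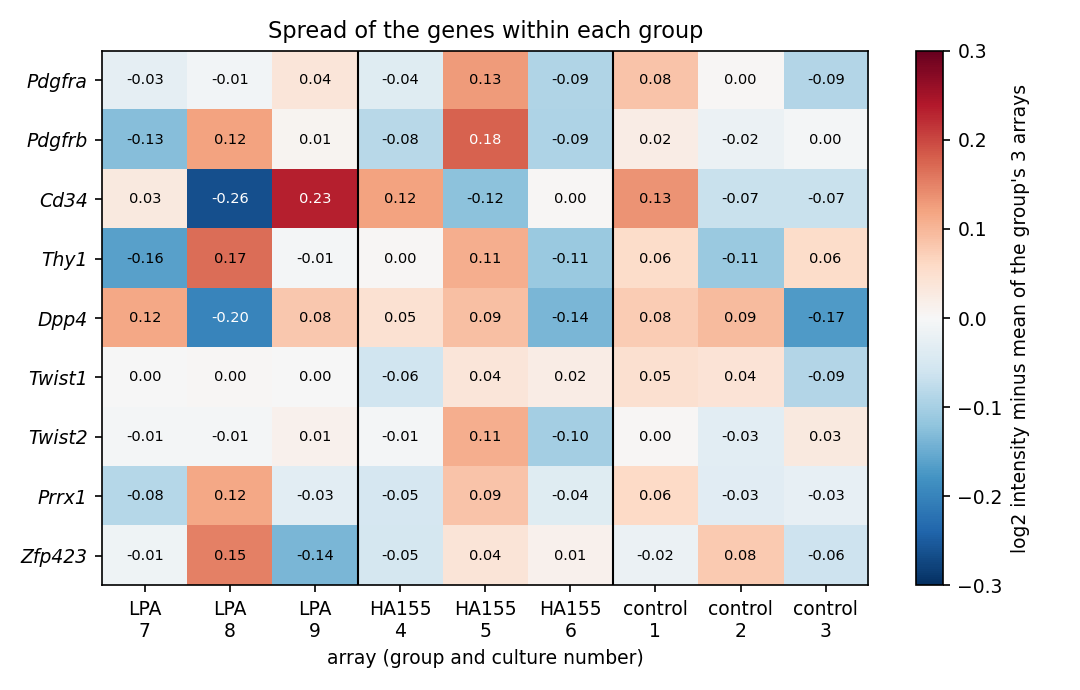
Deviation of each array from the mean of its group's 3 arrays (log2 intensity) for the 9 genes, with arrays ordered LPA, HA155 and control and red for higher, blue for lower. LPA array 8 is high for Pdgfrb, Thy1, Prrx1 and Zfp423 but low for Cd34 and Dpp4, and HA155 array 5 is high for all genes but Cd34.

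The genes most like each member over the 9 arrays were taken by Pearson's r of log2 intensity among all tested genes, as a description. Pdgfra was closest to Egfl6 (r = 0.998), Mdk (0.993) and Rhobtb3 (0.992), and Egfl6 rose further with LPA, by 1.22. Pdgfrb was closest to Dnm1 (0.997), Aebp1 (0.994) and Timp2 (0.994). Thy1 was closest to Plxnb2 (0.996), Srpx (0.995) and Fbln2 (0.995), and Prrx1 to Adam23 (0.996), Ddah1 (0.995) and Igdcc4 (0.993). Twist1 was closest to Ndrg1 (0.995), Nucb2 (0.991) and Adamts10 (0.985). With group means subtracted the r of these 15 genes with their member was at least 0.884. They were picked by r over the same arrays, so this is no separate check. Twist2 had Kcne4 (0.975), Lrrc17 (0.972) and Scg2 (0.971), for which the same subtraction left 0.599, 0.289 and 0.329. Cd34 was closest to Pde6d (0.995), Gask1b (0.983) and Sema3c (0.972), a semaphorin gene that is itself listed among precursor genes below. Dpp4 was closest to Trim12a (0.981), Snora21 (0.977) and Gsdmd (0.974), and Zfp423 to Mir23a (0.964), Trbv1 (0.922) and Mir365-1 (0.916). For the genes named beside Cd34, Dpp4 and Zfp423 the subtraction left an r of at least 0.960.

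Other surface and stromal genes of precursors moved the same way with LPA. Of 24 tested, 15 rose and 1 fell, where 12.2% and 10.8% of all tested genes did. The list median was 0.30, against 0.00519 over all tested genes. Pdpn, the mucin-type glycoprotein podoplanin, rose by 0.99 (SE 0.11, limma adjusted p = 7.97e-05), Clec11a, a secreted growth factor of stromal cells, by 0.78, the matricellular gene Ccn5 by 0.78 and the adhesion molecule Icam1 by 0.58. Vcam1, Cd44, Cd9, Eng, Cd248, Itgb1, Anxa3, Il6st, Sema3c, Mme and Dlk1 also rose, and the matrix proteoglycan Lum fell by 0.27 (SE 0.08, limma adjusted p = 0.0361). Pi16, which with Dpp4 marks interstitial precursors, measured 0.12 and did not pass (limma adjusted p = 0.354). With 1 array left out in turn the number that rose ran from 12 (without control array 2 or 3 or LPA array 9) to 15. The call of Lum was lost in 4 of these 9 fits, that of Sema3c in 4, that of Mme in 3, that of Dlk1 in 5 and that of Cd9 in 1. With HA155 only Dlk1, the preadipocyte factor, fell (-0.82) and only Mme, a membrane peptidase, rose (0.38, SE 0.07, limma adjusted p = 0.0392), at a list median of -0.04. The HA155 call of Mme was lost in 7 of the 9 fits (limma adjusted p up to 0.183), and that of Dlk1 in none. With LPA Mme measured 0.25 against the same control arrays.

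Of 28 other mesenchymal transcription factors, 12 rose with LPA and none fell, where 12.2% and 10.8% of all tested genes did. The list median was 0.28. The largest was Runx1 at 1.05 (SE 0.12, limma adjusted p = 8.98e-05), a factor of blood and mesenchymal precursors. Snai2 rose by 0.62, Tbx18 by 0.57 and Foxc1 by 0.63, and Prrx2, the paralogue of Prrx1, by 0.45 (SE 0.10, limma adjusted p = 0.00559). Zeb1 rose by 0.37, while Zeb2 measured -0.05 and did not pass (limma adjusted p = 0.625). With 1 array left out in turn the number that rose ran from 11, as without control array 3 or LPA array 8, to 14. Tbx15, among the 12, rose by 0.33, and its call was lost in 6 of these 9 fits. With HA155 none of the 28 passed, at a median of -0.02.

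Partners of the Twist and Zfp423 proteins gave 10 of 20 that rose with LPA and none that fell, with a median of 0.24. Among all tested genes 12.2% rose and 10.8% fell. Id2 and Id3, helix-loop-helix proteins without a DNA-binding region that titrate E proteins, rose by 0.76 (SE 0.07, limma adjusted p = 1.45e-05) and 0.59, and the E protein genes Tcf4 and Tcf12 rose by 0.41 and 0.27, while Tcf3 measured 0.17 (limma adjusted p = 0.0874). Zfp521, the zinc-finger protein that antagonises Zfp423 and fat cell commitment, rose by 0.72 (SE 0.09, limma adjusted p = 0.000115), beside the -0.04 of Zfp423 itself. Ebf1, a factor of adipogenesis that Zfp521 binds, rose by 0.23, Smad1 by 0.49 and Bmpr1a by 0.29. Prdm16, the brown fat regulator, measured -0.23 (limma adjusted p = 0.125). With 1 array left out in turn the number that rose ran from 6 (without control array 2) to 10, and 1 fell without LPA array 8. Bmp4, among the 10, rose by 0.18 (limma adjusted p = 0.0496), and its call was lost in all 9 of these fits. The call of Ebf1 was lost in 8 of them, that of Bmpr1a in 2 and that of Id4 in 1. With HA155 none passed, at a median of -0.03.

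Of 23 other genes of the PDGF pathway, ligands and signalling proteins, 4 rose with LPA and 2 fell, at a median of 0.13. Over all tested genes 12.2% rose and 10.8% fell. The ligand gene Pdgfd rose by 0.49 (SE 0.13, limma adjusted p = 0.0173), while Pdgfa (0.05), Pdgfb (-0.17) and Pdgfc (0.13) did not pass. The receptor-like gene Pdgfrl rose by 0.53, the endocytic receptor Lrp1 by 0.54 and the adaptor Shc1 by 0.23, whereas the adaptor Grb2 fell by 0.24 and the regulatory kinase subunit Pik3r1 by 0.23. With 1 array left out in turn the number that rose ran from 2 (without control array 2 or 3 or LPA array 9) to 7 (without LPA array 7), and the number that fell from 0 (without control array 3) to 2. The call of Pdgfd was lost in 4 of the 9 fits, that of Shc1 in 6, that of Pik3r1 in 8 and that of Grb2 in 1. With HA155 none of the 23 passed, at a median of -0.01.

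Genes of the differentiated fat cell moved the other way with LPA: 20 of 22 fell and 1 rose, where 10.8% and 12.2% of all tested genes did. Their median was -1.23, larger in size than that of any list above. The 1 that rose was Cebpd, an early adipogenic factor, by 0.79. The summed intensity of the 22 genes ran from 45858 to 47167 in LPA arrays and from 86088 to 88687 in control arrays. With HA155, Cidec (0.65), Lep (0.66) and Cd36 (0.31) rose and none fell, at a median of 0.07. The Cd36 call was lost in 8 of 9 fits with 1 array left out (limma adjusted p up to 0.231), all but that without LPA array 8, and those of Cidec and Lep in none. Of the 5 brown adipocyte markers tested, 4 fell with LPA: the cytochrome oxidase subunit genes Cox8b (-1.85) and Cox7a1 (-1.84), the kinase gene Pdk4 (-0.66) and the coactivator gene Ppargc1a (-0.60). With HA155 Cox7a1 (1.13), Cox8b (1.01) and Pdk4 (0.53) rose, and the Pdk4 call was lost in 7 of the 9 fits. The summed intensity of these 5 was 482 to 558 in LPA arrays, 2068 to 2209 in HA155 arrays and 1168 to 1224 in control arrays. The fall of the fat cell genes with LPA was measured beside the rise of the precursor genes in the same arrays, and what share of either reflects cell numbers was not tested.

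**Figure D4:**
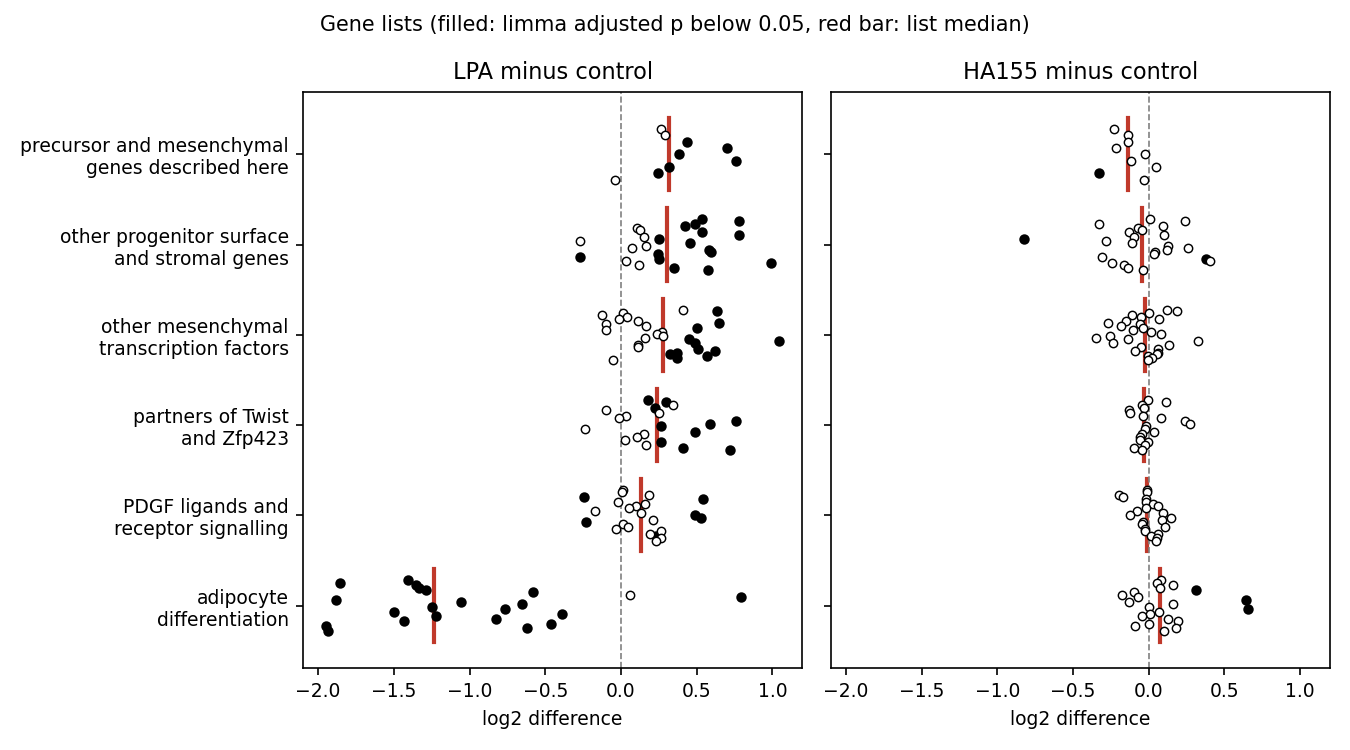
Log2 difference of each tested gene in 6 gene lists for LPA minus control and HA155 minus control; each point is a gene, filled where limma's adjusted p over all genes was below 0.05, and red bars are list medians. With LPA the medians of the precursor and mesenchymal lists lie right of 0 and that of the adipocyte list left of it. Every list has genes on both sides of 0. With HA155 all list medians lie between -0.14 and 0.07.

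Markers of other cells were measured beside the members, since several of these genes are not specific to precursors. Of 11 tested markers of pericytes and smooth muscle, which carry Pdgfrb, 5 rose with LPA and 2 fell, with a median of 0.21. For each LPA count in this paragraph the shares over all tested genes are 12.2% that rose and 10.8% that fell. The peptidase gene Anpep rose by 1.27, the intermediate filament gene Des by 0.58, the smooth muscle genes Acta2 and Tagln by 0.54 and 0.46, and the pericyte gene Abcc9 by 0.35 (SE 0.08, limma adjusted p = 0.00839). The pericyte genes Mcam and Notch3 fell by 0.96 and 0.37, Cspg4 measured 0.21 and did not pass, and Rgs5 and Higd1b were under the filter. The summed intensity of this list ran from 4735 to 5244 in LPA arrays and from 3431 to 3798 in control arrays. None of 8 tested macrophage and blood markers passed, with Ptprc, Adgre1, Itgam and Mrc1 under the filter and sums of 736 to 1005 in LPA arrays and 689 to 818 in control arrays, although 2 of the 8 rose without control array 3 and 1 without HA155 array 5. Of the others, 1 of 5 mesothelial markers fell (Cldn15, -0.40), and 1 of 6 Schwann and neural markers rose (Ncam1, 0.74), or 2 of 6 without LPA array 9. Of 12 skeletal muscle genes 7 rose, with a median of 0.50, among them Myh1 (0.98) and Des, which is on both lists. Their summed intensity ran from 2087 to 2447 in LPA arrays and from 1539 to 1629 in control arrays. Myh1 also rose with HA155, by 0.64 (SE 0.09, limma adjusted p = 0.00695). Myod1 (-0.03), Myog (0.02) and Pax7 (-0.03) did not pass with LPA, and Myf5 was under the filter. Of 11 proliferation genes 1 rose (Mcm4, 0.28), with sums of 4399 to 4902 in LPA arrays and 3928 to 4389 in control arrays. That count ran from 0 (without control array 2 or 3 or LPA array 9) to 3 (without control array 1 or LPA array 7). The part of any of these cells in the members' rise was not tested.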

How the data were processed

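The authors deposited a linear intensity for each probe set in each array. Per the submitters' processing notes RMA was used (version not given in the sources used here). RMA equalises the distributions of the arrays, so a global shift would not show, and it compresses changes of dim probes. The linear scale was read from the values.

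The deposited intensities were put on the log2 scale without an offset. Among 35432 probe sets 21706 carried 1 gene symbol in the platform annotation, which can be old, and the brightest per gene was used. Genes below the 40th percentile of mean log2 intensity (5.59, intensity 48.2) were left out. Group differences came from limma 3.58.1 (R 4.3.3), fitted to the 9 arrays together as 3 groups without covariates (6 residual degrees of freedom), two-sided, with Benjamini-Hochberg adjustment over 13335 genes per comparison at 0.05. An exact test of 3 arrays against 3 cannot go below p = 0.1. The fit was also run on simulated data, whose outcome is not given here. The simulation gave a gene the same spread in every group, so it cannot check the pooling of unequal spreads. Pairs of arrays, within or between groups, held at most 2649 identical values of 35432. Identical values within a group can understate its spread, which was not tested.

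The genes and the lists were chosen with earlier results of these data known, and no test was made over a list. All 9 members were named. Of each list the counts, the median and mainly the genes of smallest p were given; further genes were named after their values were seen, as relatives of the members. Promoters were matched by symbol to RefSeq. Of the 243 listed genes 232 had a probe set with 1 symbol; the others are not analysed here.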

Additional observations from a re-analysis of the deposited data

How the results depend on the processing

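Each difference was recomputed under 20 alternatives (19 for Dpp4, which the stricter filter removes). With LPA against control the number of members that rose stayed at 6 under all alternatives that kept every array but array weights, where Cd34 and Dpp4 also passed and it was 8. With 1 array left out in turn it ran from 5 to 8. With LPA against HA155 it ran from 7 to 8 over all alternatives. For HA155 against control the 1 member that fell, Twist2, became 0 with no intensity filter, with the filter at the 20th percentile and with each array centred on its median, and it ran from 0 to 1 with 1 array left out. Why the call was lost under the looser filters and the centring was not tested. All genes called for HA155, 138, became 86 with no filter and 338 with array weights, and ran from 39 to 232 with 1 array left out. With 1 array left out, differences that did not pass turned sign: Prrx1 with HA155 against control ran from -0.0701 to 0.0031, Zfp423 with HA155 against control from -0.0625 to 0.00771, with LPA against control from -0.11 to 0.0304 and with LPA against HA155 from -0.0820 to 0.0624. No paired analysis was possible because the groups share no culture numbers. Depth is not defined for arrays, and the values of Dpp4 are limited by signal close to background.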

Other observations

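The log2 ratio of related members within an array was compared between groups, for pairs chosen after their values were seen. Twist2 over Twist1 averaged -1.18 ± 0.11 with HA155 and -0.81 ± 0.10 in control (SD, n = 3 each), a difference of -0.38 with no overlap between the groups (two-sided exact permutation p = 0.1, the smallest that 3 arrays against 3 allow; 0.15 adjusted over 6 comparisons). With LPA the same ratio averaged -0.88 ± 0.01, against the same -0.81 ± 0.10 in control (exact permutation p = 0.2). Pdgfrb over Pdgfra averaged -1.08 ± 0.12 with LPA and -1.34 ± 0.08 in control, a difference of 0.27 with no overlap (exact permutation p = 0.1; 0.15 adjusted over 6 comparisons). With HA155 it averaged -1.42 ± 0.05, against that control value (exact permutation p = 0.2). A ratio of probe sets shows unequal change within an array and does not compare the levels of the genes.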
